A study of Oryctolagus cuniculus with 134 samples.

Results

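CD68, CSF1R, AIF1, CD163 and TIMD4, 5 genes by which macrophages are recognised in tissue, were followed across the aorta and the 4 heart valves of rabbits. The members were the rows whose gene name equals one of these symbols, which gave 5 of the 29587 genes counted, each with 1 row (CD68 ENSOCUG00000010383, CSF1R ENSOCUG00000021056, AIF1 ENSOCUG00000023521, CD163 ENSOCUG00000003958, TIMD4 ENSOCUG00000011915). RNA sequencing covered 134 libraries from 27 male New Zealand White rabbits that were 12 weeks old when the 16-week protocol began. Ctrl rabbits ate chow and received no vitamin D2. CHT rabbits ate chow with 0.3% cholesterol and were given vitamin D2, dosed by body weight, for 15 days. Lard rabbits ate chow with 5% lard and received the same vitamin D2. IR/CHT rabbits were treated as CHT and, after 8 weeks of diet, had their heart irradiated with 24 Gy in 3 fractions of 8 Gy. The paper names the aortic valve and thoracic aorta as the target of its cardiac irradiation, in describing an irradiated chow group. The dose that reached each valve is not given, so between tissues dose and tissue cannot be told apart in the response to irradiation. Each tissue had 7 Ctrl, 6 CHT, 7 Lard and 7 IR/CHT libraries, except that the mitral valve had 6 Ctrl. Vitamin D2 went with every diet, so in comparisons with Ctrl it cannot be told apart from cholesterol or lard.

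Macrophages arise from blood monocytes that enter a tissue or are maintained there as resident cells, and they take up lipoproteins, dying cells and haemoglobin. CSF1R is the receptor for the growth factors CSF1 and IL34, on which most macrophages depend. CD68 is a heavily glycosylated protein of lysosomes and endosomes, and AIF1, also called IBA1, is a calcium-binding protein that bundles actin at membrane ruffles. CD163 takes up haemoglobin bound to haptoglobin, and TIMD4 binds phosphatidylserine on dying cells. Both receptors are known from resident macrophages, and lipid-filled macrophages are the hallmark cells of the atherosclerotic plaque.

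Library totals ran from 13564979 to 50577676 counts with a median of 18235577. The lowest count in any library was 127 for CD68, 216 for CSF1R, 37 for AIF1 and 68 for CD163, whereas TIMD4 had no read in 62 of the 134 libraries. Levels are given as CPM, read counts scaled to the size of each library, after TMM scaling over all libraries. A gene was called where the fold change exceeded 1.5 and the adjusted p-value of edgeR's quasi-likelihood test over all genes tested in the tissue was under 0.05. The counts came as 2 plates, and at which step the plates were separate is not given. Plate 2 held every aorta and plate 1 every CHT library from the 2 left-sided valves. The tissues differed in the level of heart muscle markers. The summed level of 8 heart muscle markers had medians of 5847 to 9231 CPM in the tricuspid valve groups and of 63.7 to 806 CPM in those of the aortic valve.

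On chow, all 4 members that could be tested were lower in the aorta than in every valve. Here 50%, 31.1%, 37.4% and 30.4% of the 15269 genes tested were called in the aortic, mitral, pulmonary and tricuspid valve against the aorta. All Ctrl aortas were on plate 2, while the Ctrl libraries of each valve were split over both plates. Plate was not in the model of the chow comparisons, and its part was not tested. CSF1R had a lowest, median and highest level of 13.6, 21.1 and 39.3 CPM in the Ctrl aorta and of 40.6, 85.9 and 129 CPM in the Ctrl aortic valve. Its valve level lay above that of the aorta by a log2 difference of 1.79 in the aortic valve (SE 0.27, adjusted p = 1.59e-06), 1.66 in the mitral, 1.5 in the tricuspid and 1.08 in the pulmonary valve. AIF1 ranged from 2.33 to 7.80 CPM in the Ctrl aorta and from 7.73 to 21.5 CPM in the Ctrl valves, with log2 differences of 1.58 to 1.83. CD68 differed the least, with log2 differences from 0.62 in the pulmonary to 1.13 in the aortic valve. The CD68 difference fell below 1.5-fold without any 1 of 4 libraries for the pulmonary (Ctrl aortas L568, L569 and L570, pulmonary L279) and of 3 for the tricuspid valve (Ctrl aorta L568, tricuspid L168 and L280), at 0.47 to 0.58 with every adjusted p still under 0.05.

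CD163 was called between valves on chow in 3 pairs. It stood at 4.28, 13.5 and 29.4 CPM in the Ctrl aorta, at 12.1, 51.0 and 71.9 CPM in the aortic valve and at 12.3, 31.2 and 54.2 CPM in the mitral valve. The right-sided valves held more, with 70.7, 90.1 and 108 CPM in the pulmonary and 46.8, 80.8 and 121 CPM in the tricuspid valve. No Ctrl pulmonary library overlapped with those of the mitral valve or the aorta. The pulmonary valve exceeded the mitral valve by a log2 difference of 1.49 (SE 0.39, adjusted p = 0.00741) and the aortic valve by 0.93 (adjusted p = 0.0292). The tricuspid exceeded the mitral valve by 1.36 (adjusted p = 0.0308), and its difference from the aortic valve, 0.79, did not pass the test (adjusted p = 0.0689), except without L240 or L277 of the aortic or L168 of the tricuspid valve (0.89 to 0.93). In these comparisons 48.9% of all genes differed between pulmonary and aortic valve, 22.1% between pulmonary and mitral and 5.41% between tricuspid and mitral valve. No member was called between mitral and aortic valve (2.84% of genes), tricuspid and aortic valve (38.7%) or tricuspid and pulmonary valve (10.6%), but without the tricuspid library L168 CD68 was lower there than in the aortic valve (-0.65, adjusted p = 0.00344). CSF1R was called between valves in 1 pair, with less in the pulmonary than in the aortic valve (log2 difference -0.72, adjusted p = 0.018), and without the Ctrl aortic valve library L261 it was -0.61 with an adjusted p of 0.0519. With the rabbit as a block, which uses that the tissues came from the same animals, CSF1R was also lower in the pulmonary than in the mitral valve (-0.65, adjusted p = 0.0252).

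The higher CD163 level of the right-sided valves went with a marker sum of another cell type. The summed level of 7 endothelial markers had Ctrl medians of 1237 CPM in the pulmonary and 1151 CPM in the tricuspid valve, against 498 CPM in the aortic and 535 CPM in the mitral valve, and its part in the CD163 difference was not tested. The CD163 call between pulmonary and mitral valve was kept without any 1 library. Without 1 of the Ctrl aortic valve libraries L150, L198 or L261, its difference between pulmonary and aortic valve fell to between 0.76 and 0.88 with adjusted p-values of 0.0538 to 0.0643. The call between tricuspid and mitral valve was lost without any 1 of 6 libraries (L156, L199 and L262 of the mitral, L159, L185 and L243 of the tricuspid valve), at log2 differences of 1.19 to 1.38. CD163 exceeded the aorta in every valve, by 2.54 in the pulmonary, 2.40 in the tricuspid, 1.61 in the aortic and 1.05 in the mitral valve. The last of these was lost with the rabbit as a block (0.91, adjusted p = 0.0655) and without any 1 of 6 libraries (aortas L569, L570 and L571, mitral valves L183, L241 and L278), at 0.83 to 1.02.

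**Figure D1:**
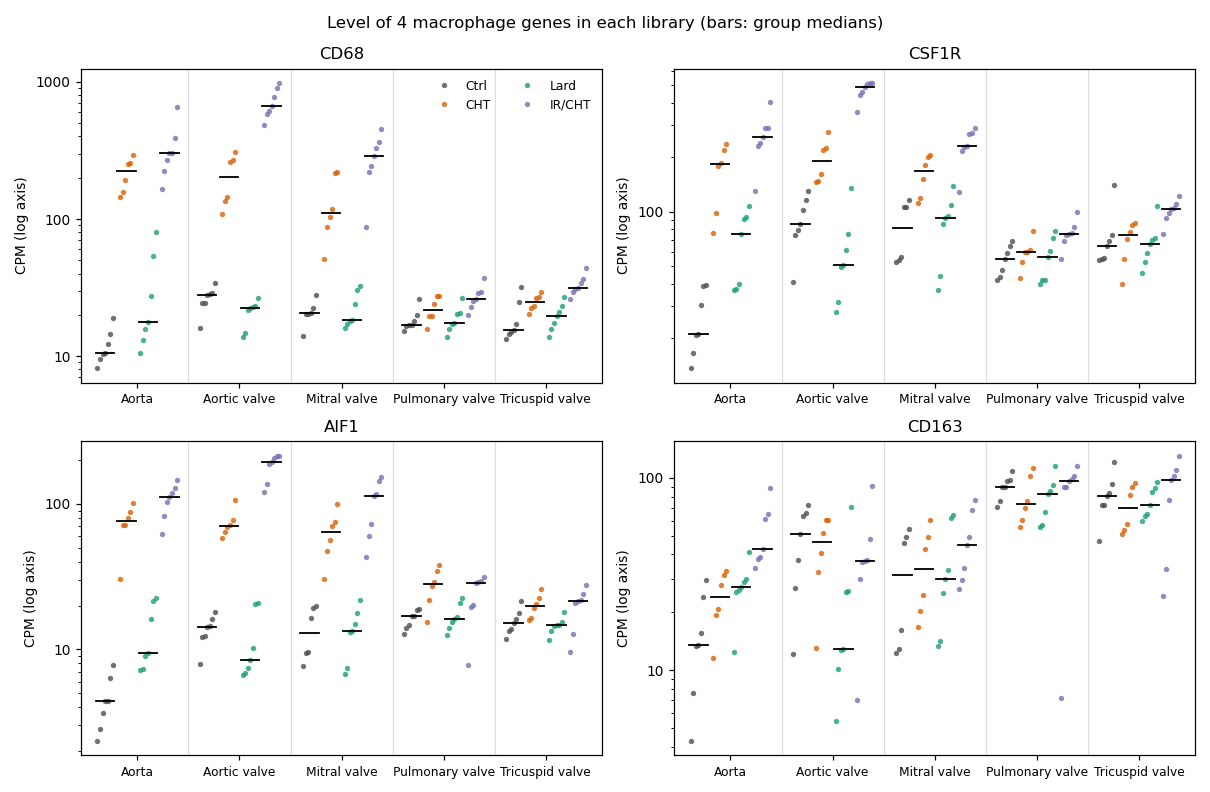
CPM on a log axis for CD68, CSF1R, AIF1 and CD163 in each of the 134 libraries (points), by tissue and treatment, with group medians as bars. CD68 medians of CHT and IR/CHT run from 111 to 671 CPM in the aorta, aortic and mitral valve and from 21.8 to 31.4 CPM in the right-sided valves, while CD163 groups overlap in most tissues.

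In the aorta, the cholesterol diet went with a large rise of CD68, AIF1 and CSF1R. These were 3 of the 4 members tested there, against 13.8% of the 14730 genes tested that rose. CD68 had 8.16, 10.5 and 19.1 CPM in Ctrl and 146, 223 and 293 CPM in CHT. Every CHT library lay above every Ctrl library, and the log2 fold change was 4.16 (SE 0.42, adjusted p = 2.38e-08), a 17.9-fold rise. AIF1 rose from 2.33, 4.38 and 7.80 CPM to 30.6, 76.3 and 101 CPM, again without overlap (log2 fold change 4.03, SE 0.33, adjusted p = 1.73e-09). CSF1R rose less, from 13.6, 21.1 and 39.3 CPM to 75.7, 182.4 and 235.5 CPM (2.68, SE 0.32, adjusted p = 4.79e-07). CD163, at 11.6, 24.2 and 32.8 CPM in CHT, overlapped with Ctrl and was not called, with a log2 fold change of 0.63 (95% CI -0.04 to 1.31, adjusted p = 0.154). Without the Ctrl library L551 that fold change was 0.87 and just passed (adjusted p = 0.0498). As in all bulk libraries, a rise in the number of macrophages and a rise in RNA per macrophage cannot be told apart here.

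In the aortic valve on the cholesterol diet, the same 3 members rose and CD163 did not, and 8.39% of the 15331 genes tested rose. CD68 went from 16.1, 28.0 and 34.4 CPM in Ctrl to 110, 203 and 307 CPM in CHT (log2 fold change 2.95, SE 0.24, adjusted p = 2.38e-09). AIF1 went from 7.90, 14.2 and 17.9 CPM to 58.3, 70.8 and 106 CPM (2.46, SE 0.26, adjusted p = 1.55e-07). CSF1R went from 40.6, 85.9 and 129 CPM to 145, 190 and 277.01 CPM (1.13, SE 0.28, adjusted p = 0.00675). For all 3, no CHT library fell within the Ctrl range. CD163 had 13.0, 46.2 and 60.7 CPM in CHT, within the Ctrl range of 12.1 to 71.9 CPM, and its log2 fold change was -0.12 (95% CI -1.17 to 0.93, adjusted p = 0.882). All CHT libraries of this valve were on plate 1, and within plate 1 the log2 fold changes were 3.14 for CD68, 2.69 for AIF1 and 1.51 for CSF1R, the last with an adjusted p of 0.0642 against 3 Ctrl libraries. The heart muscle sum had a median of 806 CPM in Ctrl and 63.7 CPM in CHT, and its part in these values was not tested.

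In the mitral valve, where 5.1% of the 15309 genes tested rose, CD68, AIF1 and CSF1R were called as well. CD68 rose from 13.9, 20.5 and 28.1 CPM to 51.2, 111 and 219 CPM (log2 fold change 2.66, SE 0.34, adjusted p = 7e-06) and AIF1 from 7.73, 12.9 and 19.8 CPM to 30.3, 63.7 and 101 CPM (2.22, adjusted p = 8.81e-05). The groups did not overlap for these 2 genes. CSF1R, with 52.3, 81.0 and 116 CPM in Ctrl and 112, 166.9 and 205 CPM in CHT, rose by 0.98 (adjusted p = 0.0296), and 5 of the 6 CHT libraries lay above all Ctrl. That call was lost without any 1 of 6 libraries, the Ctrl libraries L156, L199 and L262 and the CHT libraries L157, L229 and L266 (log2 fold changes of 0.88 to 0.95, adjusted p up to 0.0873), and also without TMM scaling (adjusted p = 0.0657) or without the filter (adjusted p = 0.052). CD163 again overlapped, at 16.8 to 60.5 CPM in CHT against 12.3 to 54.2 CPM in Ctrl (0.17, 95% CI -0.73 to 1.07, adjusted p = 0.918). Within plate 1, which holds all CHT libraries and 4 of the 6 Ctrl libraries, the log2 fold changes were 2.82 for CD68, 2.47 for AIF1 and 1.27 for CSF1R, and all 3 passed. The CHT response of the mitral minus that of the aortic valve was -0.29 for CD68 (95% CI -1.07 to 0.49), -0.14 for CSF1R and -0.24 for AIF1, with adjusted p-values of 0.704 to 0.858 in a test that called 0 of the 16966 genes in edgeR.

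**Figure D2:**
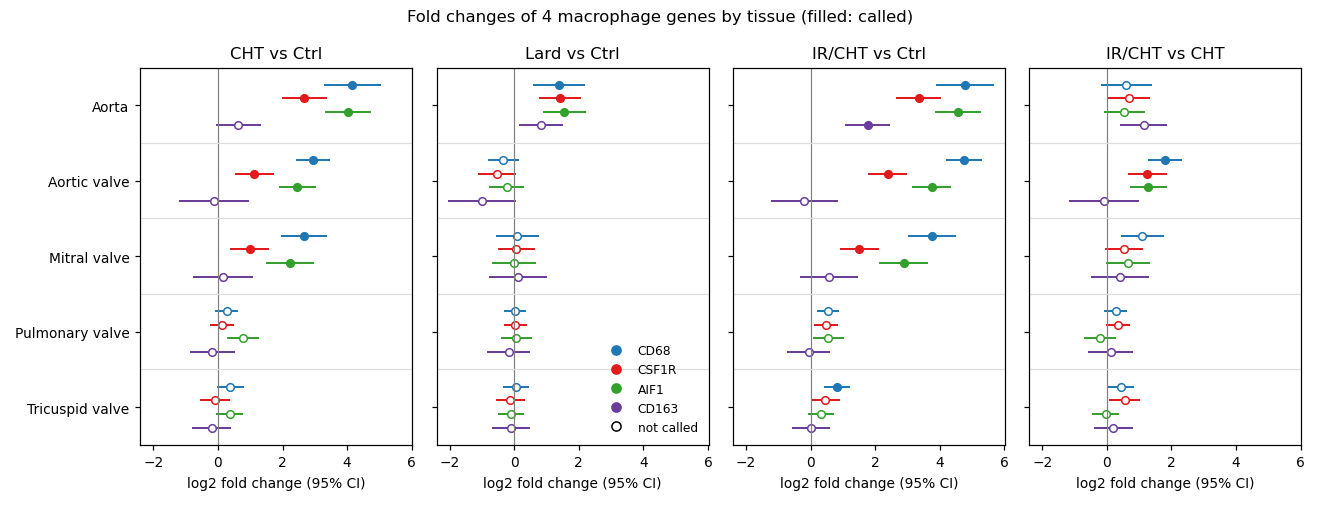
Log2 fold change of CD68, CSF1R, AIF1 and CD163 with its 95% confidence interval, by tissue, for each of CHT, Lard and IR/CHT over Ctrl and for IR/CHT over CHT, with filled points where a gene was called. CD68 rises by 4.16, 2.95 and 2.66 in the aorta, aortic and mitral valve under CHT and lies near 0 in the right-sided valves, and under IR/CHT against CHT filled points appear in the aortic valve alone.

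The right-sided valves differed from the left-sided valves in the response of CD68 and AIF1. In the pulmonary valve CD68 stood at 15.4, 17.0 and 26 CPM in Ctrl and 15.8, 21.8 and 27.6 CPM in CHT, a log2 fold change of 0.27 (95% CI -0.05 to 0.60, adjusted p = 0.561). In the tricuspid valve it stood at 13.3, 15.5 and 32.0 CPM in Ctrl and 20.2, 24.7 and 29.2 CPM in CHT, a log2 fold change of 0.39 (95% CI 0.00 to 0.77, adjusted p = 0.657). Neither passed, and 0.0486% and 0.0814% of genes rose in these valves. Within plate 1 of the tricuspid valve CD68 did pass, at 0.77 (adjusted p = 0.0152), and within plate 2 it was -0.32 (adjusted p = 0.489). Tested directly, the CHT response of CD68 was larger in the aortic than in the pulmonary valve by a log2 difference of 2.68 (95% CI 1.90 to 3.46) and larger in the mitral than in the tricuspid valve by 2.28 (95% CI 1.48 to 3.07). AIF1 gave 1.69 and 1.86 in the same tests. The background of these 2 tests was 5.14% and 2.21% of the 16966 genes. For CSF1R the differences were 1.01 (adjusted p = 0.103) and 1.07 (adjusted p = 0.148) and did not pass. AIF1 in the pulmonary valve had 12.8, 16.9 and 19.0 CPM in Ctrl and 15.5, 28.2 and 38.2 CPM in CHT, with 5 of 6 CHT libraries above all Ctrl, but its log2 fold change of 0.77 (95% CI 0.31 to 1.24) did not pass over all genes (adjusted p = 0.209). Without the IR/CHT library L275 the same value passed (adjusted p = 0.0453).

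For CD68, CSF1R and AIF1 the CHT response of the aorta exceeded that of the aortic valve. The log2 difference of the CHT responses, aortic valve minus aorta, was -1.21 for CD68 (adjusted p = 0.0318), -1.55 for CSF1R and -1.57 for AIF1, in a test that called 10.4% of genes. The chow level of these members in the aorta was lower to begin with, and the CHT medians of both tissues were close, 223 and 203 CPM for CD68 and 182.4 and 190 CPM for CSF1R. With plate as a covariate the CD68 difference was -1.01 and did not pass (adjusted p = 0.0814).

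Lard raised the same 3 members in the aorta, but less than cholesterol did, while 2.65% of all genes rose. CSF1R had 36.8, 75.4 and 108 CPM under Lard, with 5 of 7 libraries above all Ctrl (log2 fold change 1.42, SE 0.31, adjusted p = 0.01). AIF1 had 7.21, 9.49 and 22.5 CPM (1.55, adjusted p = 0.0051). CD68 had 10.6, 17.8 and 81.1 CPM, and 3 of 7 libraries exceeded the Ctrl range (1.38, adjusted p = 0.0405). The CD68 call was lost without any 1 of 9 libraries (Ctrl L552, L553, L568, L569, L570 and L571, Lard L562, L575 and L578), at log2 fold changes of 0.94 to 1.43, and also without the filter (adjusted p = 0.0915) and with 2 groups alone (adjusted p = 0.147). With the Ctrl and Lard libraries alone in the model none of the 3 passed, at adjusted p-values of 0.0613 to 0.147. CD163 was at 12.4, 27.1 and 41.2 CPM and was not called (0.82, adjusted p = 0.193).

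Against CHT, Lard aortas had less CD68 (-2.78, SE 0.39, adjusted p = 1.63e-05), AIF1 (-2.48) and CSF1R (-1.26, adjusted p = 0.00675), where 7.2% of genes were lower. All 7 Lard libraries lay below all CHT libraries for CD68 and AIF1, and 4 of 7 did for CSF1R. In the aortic valve CD68 (-3.30), AIF1 (-2.69) and CSF1R (-1.66) were lower under Lard than under CHT without overlap (7.15% of genes lower), although CSF1R did not pass within plate 1 (-1.59, adjusted p = 0.0643). In the mitral valve CD68 (-2.57) and AIF1 (-2.23) were lower without overlap, with CSF1R at -0.91 and 6 of 7 libraries below (adjusted p = 0.0325, 5.39% of genes lower). This last call was lost without any 1 of 6 libraries (CHT L157, L229 and L266, Lard L158, L191 and L270), at -0.91 to -0.78. It was also lost without TMM scaling (adjusted p = 0.065), without the filter (0.0551), with 2 groups alone (0.0599) and within plate 1 (-0.81, adjusted p = 0.333). In no valve was a member called between Lard and Ctrl. The background there was 0.215% of genes in the aortic valve and 0% in the other 3 valves, where 1.61%, 2.58% and 7.33% of the genes of the mitral, pulmonary and tricuspid valve had an unadjusted p under 0.05 in edgeR. The Lard response of CD68, CSF1R, AIF1 and CD163 was lower in the aortic valve than in the aorta by log2 differences of -1.72, -1.95, -1.78 and -1.83, all of which passed (4.82% of genes called). In the aortic valve CD163 had 5.45, 13.0 and 70.2 CPM under Lard and a log2 fold change of -1.01 (95% CI -2.02 to 0.01, adjusted p = 0.433). The highest value was that of L232, and without this library the log2 fold change was -1.60 against Ctrl (adjusted p = 0.249), and against CHT it went from -0.89 (adjusted p = 0.392) to -1.48 and passed (adjusted p = 0.0496). The endothelial sum of the same libraries had a median of 224 CPM under Lard and 498 CPM in Ctrl, and its part was not tested.

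Irradiation added to the cholesterol diet went with a further rise of CD68, CSF1R and AIF1 in the aortic valve, the one tissue where a member passed between IR/CHT and CHT. Here 10.3% of genes rose. CD68 reached 484, 671 and 985 CPM, with every IR/CHT library above every CHT library (log2 fold change 1.81, SE 0.24, adjusted p = 8.72e-06). CSF1R reached 356, 487 and 515 CPM (1.26, SE 0.29, adjusted p = 0.00205) and AIF1 121, 194.95 and 215 CPM (1.29, SE 0.26, adjusted p = 0.000721), also without overlap. CD163 had 7.03, 36.8 and 90.2 CPM, and its log2 fold change was -0.08 (95% CI -1.13 to 0.97, adjusted p = 0.936). Within plate 1 the values were 1.85 for CD68, 1.21 for CSF1R and 1.43 for AIF1, and all 3 passed. The CD68 response to irradiation was larger in the aortic valve than in the aorta by a log2 difference of 1.20 (adjusted p = 0.0315, 8.89% of genes called) and larger than in the pulmonary valve by 1.54 (15.1% called), and AIF1 exceeded the pulmonary valve by 1.51. For IR/CHT against Ctrl, CD68 rose more in the aortic than in the pulmonary valve by 4.22 (40.8% of genes called), more in the mitral than in the tricuspid valve by 2.95 (8.25% called) and less in the mitral than in the aortic valve (mitral minus aortic valve -1.01, adjusted p = 0.0483, 18.9% called). The last of these was lost without the low-count filter (adjusted p = 0.0736) and with DESeq2's size factors (adjusted p = 0.0852).

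In the mitral valve, CD68 had 87.0, 286 and 451 CPM in IR/CHT, with 6 of 7 libraries above all CHT libraries, and its log2 fold change over CHT of 1.09 (95% CI 0.46 to 1.73) did not pass (adjusted p = 0.13, 0.163% of genes called). Without the CHT library L157 or the IR/CHT library L175 it passed at 1.25 to 1.29, and in DESeq2 on all mitral libraries it passed at 1.09 (adjusted p = 0.0451). The difference between the mitral and the aortic valve in this response was -0.71 for CD68 (95% CI -1.48 to 0.05) and did not pass. In the aorta CD163 had 34.0, 42.7 and 89.1 CPM in IR/CHT, all above the CHT maximum of 32.8 CPM (1.14, 95% CI 0.45 to 1.82). Over all genes that difference did not pass (adjusted p = 0.079, 0.631% called), although DESeq2 gave 1.18 with an adjusted p of 0.0246. Against Ctrl it did pass, at a log2 fold change of 1.77 (SE 0.32, adjusted p = 6.71e-05), and this response of CD163 was larger than that of the aortic valve (aortic valve minus aorta -1.97, adjusted p = 0.00273, 36.8% of genes called).

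Against Ctrl, the sum of diet, vitamin D2 and irradiation gave log2 fold changes for CD68 of 4.77 in the aorta, 4.76 in the aortic and 3.76 in the mitral valve, against backgrounds of 21.2%, 21.5% and 11.6% of genes that rose. AIF1 rose by 4.57, 3.75 and 2.88 and CSF1R by 3.35, 2.38 and 1.51. Within plates 1 and 2 of the mitral valve CSF1R rose by 1.66 and 1.24, and the second value did not pass (adjusted p = 0.0669). CD163 in the aortic valve differed from Ctrl by -0.20 (95% CI -1.21 to 0.81) and in the mitral valve by 0.56 (95% CI -0.31 to 1.43). In the tricuspid valve CD68 had 26, 31.4 and 44.2 CPM and passed at 0.81 (SE 0.18, adjusted p = 0.0493, 0.122% of genes rose), with 3 of 7 libraries above all Ctrl. That call is at the threshold. It was lost without any 1 of 22 of the 27 tricuspid libraries, at log2 fold changes of 0.73 to 0.84, and it was 0.99 within plate 1 (adjusted p = 0.000824) and 0.40 within plate 2 (adjusted p = 1). It was also lost under 5 of the settings that changed the scaling, the filter or the groups in the edgeR model. In the pulmonary valve CD68 had 19.9, 26 and 36.9 CPM and a log2 fold change of 0.55 (95% CI 0.23 to 0.86, adjusted p = 0.0926, 0.563% of genes rose), and it passed without the Ctrl library L279 or the IR/CHT library L180 at 0.61 to 0.65. Between IR/CHT and CHT no member passed in the pulmonary valve (0.0625% of genes called) or the tricuspid valve (0% called in edgeR, with 1343 genes of 14743 at an unadjusted p under 0.05), where CD68 differed by 0.27 (adjusted p = 0.279) and 0.43 (adjusted p = 0.483). The comparisons with Ctrl share the same Ctrl libraries, so their values are not independent of each other.

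CSF1R did not rise in proportion to CD68 in the aorta, aortic and mitral valve. With all libraries, AIF1 fell behind CD68 against Ctrl only under IR/CHT in the aortic and mitral valve. The ratio of 2 members within a library does not depend on how libraries are scaled, so it was compared between groups by an exact two-sided permutation test, with p-values adjusted over 100 tests. CSF1R relative to CD68 fell under CHT in the aorta by 1.5 on the log2 scale, from a mean of 1.04 (SD 0.47, n = 7) to -0.46 (SD 0.31, n = 6). In the aortic valve it went from 1.71 (SD 0.24, n = 7) to 0.00 (SD 0.33, n = 6), and in the mitral valve from 1.90 (SD 0.40, n = 6) to 0.42 (SD 0.54, n = 6). In each of these tissues all 6 CHT libraries lay below all Ctrl libraries, and the exact permutation adjusted p-values were 0.00291, 0.00291 and 0.00698. In the tricuspid valve the ratio was lower under CHT, with 4 of 6 libraries below all Ctrl (difference -0.50, exact permutation adjusted p = 0.0291), a call lost without any 1 of 6 libraries (Ctrl L159, L168, L243 and L264, CHT L160 and L231), at -0.48 to -0.37. IR/CHT took the ratio in the aortic valve further down, to -0.59 (SD 0.24, n = 7), 0.59 below CHT (exact permutation adjusted p = 0.0106). AIF1 relative to CD68 differed by -0.14, -0.41 and -0.30 in these tissues under CHT and did not pass, except in the aortic valve without the CHT library L186 or L228 (-0.50, exact permutation adjusted p = 0.0339). In the pulmonary valve that ratio was higher under CHT by 0.46 (exact permutation adjusted p = 0.0162), a call lost without the CHT library L246 or L267 (0.42, exact permutation adjusted p = 0.0505). Under IR/CHT AIF1 fell behind CD68 by 1.01 in the aortic and 0.80 in the mitral valve, the latter lost without the Ctrl library L183 or L241 (0.70 and 0.68).

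CD163 fell relative to CD68 in the aorta, aortic and mitral valve. Under CHT the log2 ratio went down by 3.38 in the aorta, 2.95 in the aortic and 2.22 in the mitral valve, and under IR/CHT by 2.78, 5.04 and 2.89. In the aorta and aortic valve every library of both groups lay below every Ctrl library. In the pulmonary valve the ratio stood at 2.28 (SD 0.15, n = 7) in Ctrl and at 1.35 (SD 1.36, n = 7) in IR/CHT, and 6 of 7 IR/CHT libraries lay below all Ctrl (difference -0.93, exact permutation adjusted p = 0.00466). Without either of the Ctrl libraries L167 and L200 that difference no longer passed, at -0.90 and -0.89, and without the IR/CHT library L275 it was -0.42 and still passed. No ratio of the members passed between Lard and Ctrl with all libraries. Without the Lard library L232 of the aortic valve, CD163 over CD68 (-1.18, exact permutation adjusted p = 0.0434) and CSF1R over CD68 (-0.45, exact permutation adjusted p = 0.0384) passed, and without the Lard library L155 CD163 over CD68 passed in the pulmonary valve (-0.33, exact permutation adjusted p = 0.0327). Against CHT the ratios of CSF1R and of CD163 to CD68 were higher under Lard in the aorta, aortic and mitral valve by 1.41 to 3.31. With relabelling kept within plates, those of CD163 in the aortic and mitral valve no longer passed (exact permutation adjusted p = 0.0776 and 0.0554).

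**Figure D3:**
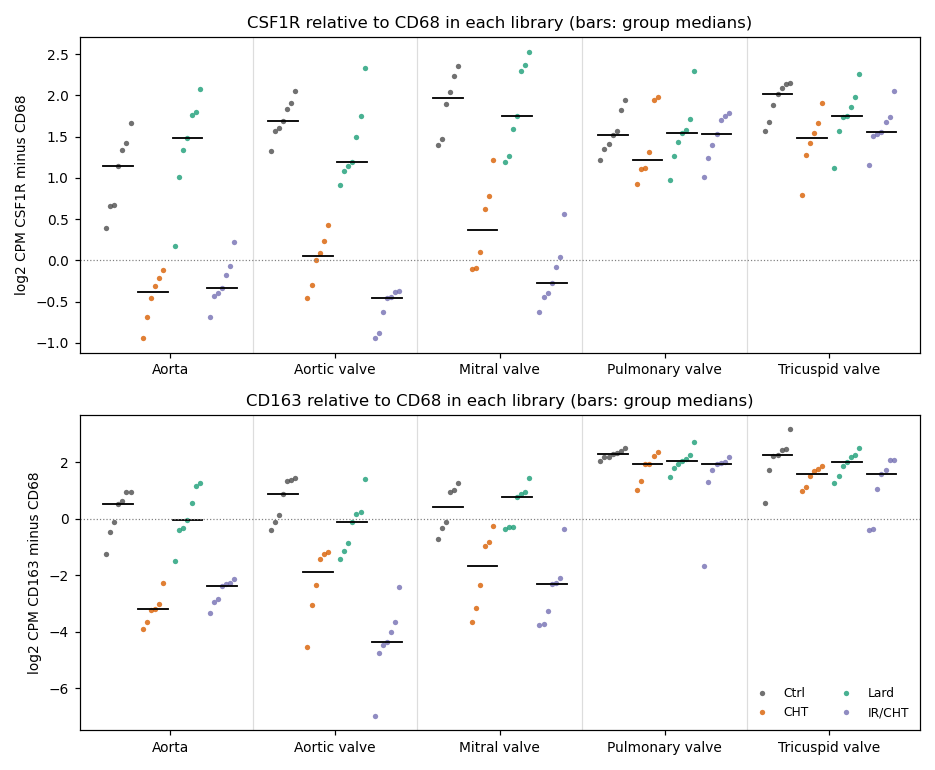
Log2 CPM of CSF1R minus CD68 (top) and of CD163 minus CD68 (bottom) in each library, by tissue and treatment, with group medians as bars and a dotted line at equal CPM. In the top panel all CHT and IR/CHT points of the aorta, aortic and mitral valve lie below all Ctrl points, with CHT means lower by 1.5, 1.71 and 1.48, while in the bottom panel 1 CHT and 1 IR/CHT point of the mitral valve reach into the Ctrl range. The height of the line itself has no meaning because the genes differ in length.

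TIMD4 was counted at higher levels under CHT and IR/CHT in the right-sided valves. In the pulmonary valve the 7 Ctrl libraries held 0, 0, 0, 0, 0, 1 and 3 reads of it, the 6 CHT libraries 13, 23, 40, 41, 88 and 91, and the 7 IR/CHT libraries 11, 14, 19, 57, 81, 87 and 255. In the tricuspid valve the counts were 0, 0, 0, 0, 1, 4 and 8 in Ctrl, 10, 20, 54, 82, 99 and 108 in CHT and 24, 25, 30, 70, 74, 106 and 132 in IR/CHT. Every CHT and IR/CHT library of both valves lay above every Ctrl library. The levels remained low, with CHT medians of 2.17 CPM in the pulmonary and 4.13 CPM in the tricuspid valve.

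Summed over libraries, TIMD4 was 83.1-fold higher in CHT than in Ctrl in the pulmonary valve (counting interval 32.1 to 307) and 32.1-fold in the tricuspid valve (18.5 to 60.8). These intervals cover counting error alone. The Ctrl sums are 4 and 13 reads, and without the Ctrl library L263 of the pulmonary valve (3 reads) or L243 of the tricuspid valve (8 reads) the folds were 276.3 and 72.1. In edgeR, where the fitted fold depends on the prior count, TIMD4 was called under CHT and under IR/CHT in both right-sided valves. It was the one member called in the pulmonary valve under these treatments. The gene passed the filter on low counts in these 2 valves through the groups where it is high, so it had to differ if it was tested. These calls are therefore no result, and no p-value is given for them. Plate 1 kept both calls in the pulmonary valve, while plate 2, with 2 libraries each of Ctrl, CHT and IR/CHT, did not give a call. In the tricuspid valve the CHT call was lost without the CHT library L160 or L189, within plate 1 and in plate 2.

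Between IR/CHT and CHT, TIMD4 was not called in either right-sided valve. The IR/CHT to CHT ratio of summed counts was 1.55 in the pulmonary and 1.05 in the tricuspid valve, and neither passed (adjusted p = 0.581 and 0.993). In the pulmonary valve 1 library, L549, held 255 of the 524 reads of the IR/CHT group, and without it the log2 fold change went from 0.63 to -0.19. Lard libraries held 0 to 7 reads in the pulmonary and 0 to 19 in the tricuspid valve. Against CHT the Lard libraries of the pulmonary valve all lay lower (0.0347% of genes lower), and in the tricuspid valve 6 of 7 did. Since the groups where TIMD4 is high brought it through the filter, no p-value is given for these. In the Ctrl, CHT and IR/CHT pulmonary valves the endothelial sum had medians of 1237, 1241 and 1297 CPM and the heart muscle sum of 219, 27.4 and 524 CPM, and their part in the TIMD4 values was not tested.

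In the left-sided tissues TIMD4 was nearly absent. All 7 Ctrl aortas had no read, the CHT aortas held 0, 0, 1, 1, 2 and 7 and the IR/CHT aortas 0, 0, 2, 3, 3, 5 and 12. With 3 counts over the Ctrl group as the floor, the summed level was at least 3.81-fold higher in CHT and at least 7.08-fold higher in IR/CHT. Without the CHT aorta L560 (7 reads) or the IR/CHT aorta L582 (12 reads) these bounds fell to 1.63 and 4.26. The gene did not pass the filter in the aorta, and without the filter it passed in edgeR under CHT (adjusted p = 0.0444) and IR/CHT (adjusted p = 0.00777), whereas DESeq2 gave adjusted p-values of 0.123 and 0.0185. In the aortic valve 3 of the 7 IR/CHT libraries, with 8, 8 and 31 reads, exceeded all others, while the groups of the mitral valve had 1, 5, 2 and 8 reads in all.

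**Figure D4:**
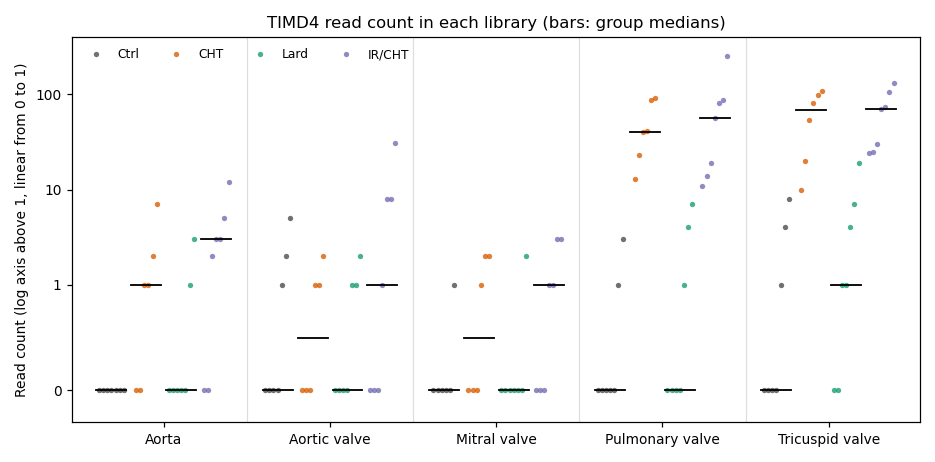
Read count of TIMD4 in each library by tissue and treatment, on an axis that is linear from 0 to 1 and logarithmic above, with group medians as bars. CHT and IR/CHT libraries of the pulmonary and tricuspid valve hold 10 to 255 reads, whereas Ctrl libraries of these valves hold 0 to 8.

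Ordered by mean CPM over the 20 groups of tissue and treatment, CD68, CSF1R and AIF1 each had 3 of 19 neighbouring pairs that differed by more than the larger SD of the pair, TIMD4 had 1 and CD163 none. CD68 was highest in the IR/CHT aortic valve, at 716 ± 179.3 CPM (SD, n = 7), followed by the IR/CHT aorta and mitral valve, and the gap from the aortic valve to the next group exceeded the larger SD. CD163 was highest in the right-sided valves whatever the treatment, with all 8 of these groups above the 12 others in their medians. The lowest CD163 value in the right-sided valves, 7.18 CPM, came from the IR/CHT pulmonary library L275, against 96.8 CPM in the median of its group. The same library was also low in AIF1, at 7.76 CPM, and its endothelial sum was 98.8 CPM against a group median of 1297 CPM, a difference whose part in these values was not tested.

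Over the 20 group means of log2 CPM, the patterns of CD68, CSF1R and AIF1 were close, with Pearson r of 0.95 to 0.96 between each pair. CD163 had an r of -0.13 with CD68 and 0.54 with TIMD4. Among 11245 genes with a symbol, the closest to CD68 were CTSB, a lysosomal protease (r = 0.99), ADAMTS14 and PIK3AP1. CSF1R was closest to SEMA4D, PRDM1 and MATN1, and AIF1 to IGSF6, FCER1G and LCP2. The closest to CD163 were PECAM1 and CDH5, both proteins of endothelial cell junctions (r = 0.95 and 0.92), and the mannose receptor MRC1 (r = 0.92). TIMD4 had no close neighbour, with r of at most 0.80 for SNORD116, CAMK2D and MYLIP. The 20 points share tissues, so these values are a description.

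After the mean of each tissue and treatment was removed, leaving differences among the 134 libraries within groups, CD163 was closest to MRC1 (r = 0.89), LYVE1 (r = 0.84) and CCL14 (r = 0.81). CD68 was closest to MATN1, ARHGAP30 and MYO1F (r = 0.82 to 0.85), CSF1R to the complement receptor C5AR1 (r = 0.83), ARHGAP30 and STARD8, and AIF1 to HCLS1, PTPRC and FYB1 (r = 0.81 to 0.83). TIMD4 reached at most 0.43, with HECW2, followed by ITIH6 and TGFB2. Between members, r within groups was 0.68 for CD68 and CSF1R, 0.52 for AIF1 and CD163 and 0.07 for CD68 and CD163. Libraries of 1 rabbit enter up to 5 times, and composition and depth differ between libraries.

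Whether a rabbit with a high level in 1 tissue also had a high level in another was tested in 15 relations, with the treatment means removed and p-values from 100000 permutations within treatments. CD163 in the aortic and mitral valve was related over 26 rabbits, with a Pearson r of 0.61 (permutation adjusted p = 0.0252) and a Spearman rho of 0.64 (permutation adjusted p = 0.0343). Without the 2 rabbits farthest from the median r was 0.57, and within the rabbits with both valves on plate 1 (15) or on plate 2 (8) it was 0.75 and 0.66. These 2 valves of a rabbit also deviated together in general. The median correlation of their deviations from the group means was 0.44, the highest of the tissue pairs. How many other genes have a relation like that of CD163 was not computed. AIF1 in the same valves had an r of 0.52 (permutation adjusted p = 0.0745) and a rho of 0.57 (permutation adjusted p = 0.0343). CD68 and CSF1R had r of 0.50 and 0.44 there, and neither passed (permutation adjusted p = 0.138 and 0.224). Between the aorta and either valve, CD68, CSF1R, AIF1 and CD163 had r from -0.23 to 0.15, and none passed. For TIMD4, with few reads in these tissues, r was 0.49 between aorta and aortic valve (permutation adjusted p = 0.176, 0.28 without the 2 farthest rabbits), 0.28 between the valves and 0.16 between aorta and mitral valve, and none passed.

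**Figure D5:**
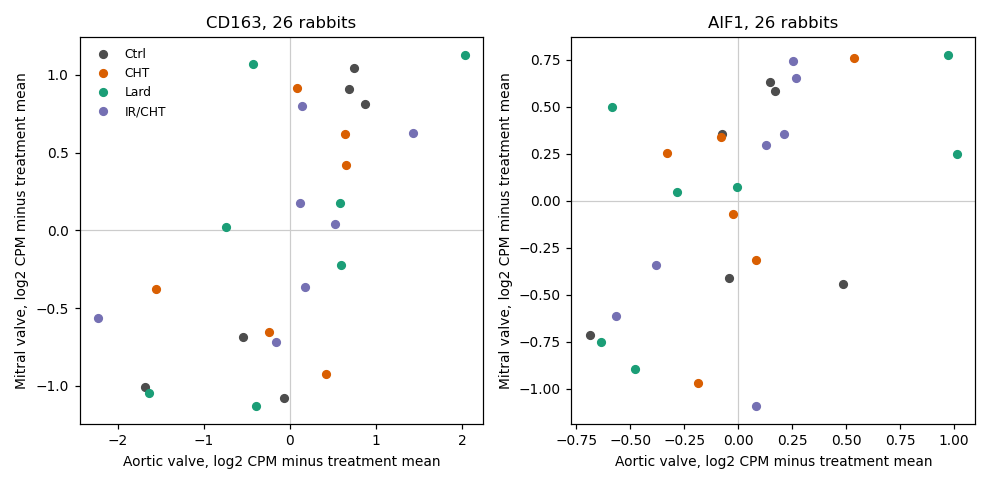
Log2 CPM minus the treatment mean in the aortic valve (x axis) and mitral valve (y axis) of the same rabbit for CD163 (left) and AIF1 (right), 26 rabbits coloured by treatment. Rabbits high in 1 valve tend to be high in the other, with r of 0.61 for CD163 and 0.52 for AIF1.

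Genes around CSF1R were counted in 2 lists, its growth factor ligands with related receptors and its signalling chain. In CHT against Ctrl, 13.8%, 8.39% and 5.1% of all genes rose in the aorta, aortic and mitral valve, and the list counts below stand beside these shares. Of the ligands of CSF1R and the related growth factor receptors, 4 of 5 measured genes rose under CHT in the aorta and 2 of 6 in each of the aortic and mitral valve. FLT3, a receptor of blood progenitors and dendritic cells, rose in the aorta by 4.55 (adjusted p = 1.03e-06). CSF1 rose in the aorta under CHT, from 14.1 ± 5.1 to 31.5 ± 11 CPM (SD, n = 7 and 6, log2 fold change 1.16, adjusted p = 0.0321), and was not called in any valve. The second ligand, IL34, rose in the aorta from 0.98 ± 0.65 to 5.40 ± 2.19 CPM (2.45, adjusted p = 0.000723), and its log2 fold changes of 0.14 in the aortic and 0.29 in the mitral valve did not pass. Of the 15 measured genes that carry or damp the CSF1R signal, 12 rose under CHT in the aorta, 12 in the aortic and 12 in the mitral valve, with median log2 fold changes of 3.28, 1.64 and 1.76 against -0.06, -0.02 and -0.01 over all genes. TYROBP, an adaptor with an activating motif, rose by 4.6 in the aorta, with 2.90 in the aortic valve. SYK, a kinase that TYROBP recruits, rose by 2.68 in the aortic and 2.28 in the mitral valve. PTPN6, a phosphatase that restrains such signals, rose by 2.74 and 2.50 there. Between IR/CHT and CHT all 15 were higher in the aortic valve (median 1.41 against 0.03 over all genes, of which 10.3% rose). In the other tissues, where 0% to 0.631% of all genes were called, none was, nor under CHT in the right-sided valves, where 0.0486% and 0.0814% rose.

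Other lists held macrophage genes by their known origin or state. Of 11 measured resident markers, 6 rose under CHT in the aorta (median 1.99), 3 in the aortic (0.40) and 6 in the mitral valve (0.90), where 13.8%, 8.39% and 5.1% of all genes rose. VSIG4, a complement receptor, rose by 2.79, 0.99 and 1.06, and PLTP, a phospholipid transfer protein, by 3.05, 1.05 and 1.92. The mannose receptor MRC1 was called in the aorta under IR/CHT, at 0.86 (adjusted p = 0.0226), and LYVE1, a hyaluronan receptor also found on lymphatic vessels, fell there by 0.96 (adjusted p = 0.00584). CSF1, MRC1 and LYVE1 were singled out after their values were seen. Under CHT, 8 of 9 measured monocyte and recruited macrophage markers rose in the aorta, 7 of 9 in the aortic and 6 of 9 in the mitral valve. ITGAM, a chain of the complement receptor integrin of monocytes and neutrophils, rose by 6.42, 4.54 and 4.02. Of 10 lipid-laden macrophage markers 9, 8 and 8 rose, among them GPNMB, a lysosomal glycoprotein, by 7.26 in the aortic and 5.92 in the mitral valve.

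Further lists held genes with a function near that of a member, again beside 13.8%, 8.39% and 5.1% of all genes that rose under CHT in the aorta, aortic and mitral valve. All 7 measured actin regulators of blood cells listed with AIF1 rose in the aorta and aortic valve under CHT and 6 in the mitral valve, among them LCP1, which bundles actin, by 5.83, 3.80 and 2.32. Near CD163, the haem-degrading enzyme HMOX1 rose by 2.95, 1.61 and 1.38 and by another 2.00 in the irradiated aortic valve, where CD163 differed from CHT by -0.08 (adjusted p = 0.936). Other scavenger receptors rose in part, 4 of 10 in the aorta, 3 of 9 in the aortic and 3 of 10 in the mitral valve, with MSR1, which takes up modified lipoproteins, at 5.53, 3.00 and 2.23. Near TIMD4, 1 of 10 genes for the uptake of dying cells rose in the aorta, where another, GULP1, an engulfment adaptor, fell by 0.66. In the aortic and mitral valve 2 of 10 rose, RAC2, a small GTPase of blood cells, and MERTK, a receptor tyrosine kinase that binds phosphatidylserine through bridging proteins. MERTK rose by 0.92 and 0.81 in these valves and by another 1.11 in the irradiated aortic valve. Near CD68, 1 of 4 genes of the lysosomal membrane rose in the aorta, LAMP1, by 1.06.

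Other groups of genes moved beside the members. Of 10 macrophage transcription factors 5, 4 and 5 rose in the aorta, aortic and mitral valve under CHT, against the same shares of all genes, among them NR1H3, the oxysterol receptor LXR alpha, by 2.34, 1.92 and 2.19. T cell markers summed to medians of 1.4, 15.9 and 24.6 CPM in the Ctrl, CHT and IR/CHT aorta and to 3.5, 15.7 and 58.3 CPM in the aortic valve. Sums of dendritic cell markers had medians of 2.16, 41.3 and 53.9 CPM in the aorta and of 3.72, 32.1 and 105 CPM in the aortic valve, and those of B cell markers 4.72, 52.2 and 69.4 CPM and 9.11, 36.4 and 122 CPM. Single genes held most of 2 of these sums under CHT. In aorta and aortic valve, means were 43.8 and 33.5 CPM for the B cell gene CD22 and 14.8 and 12.6 CPM for the T cell gene IL7R. Neutrophil marker sums lay between 0.635 and 9.54 CPM in the aorta under Ctrl, CHT and IR/CHT and reached 35.1 CPM in 1 Lard aorta. Proliferation markers rose under CHT in 7 of 7, 7 of 7 and 6 of 7 cases in the aorta, aortic and mitral valve. In the aorta 6 of 7 endothelial markers rose under CHT and under IR/CHT (13.8% and 21.2% of all genes rose), with their sum at medians of 181.3, 571.7 and 738 CPM, while 3 and 6 of 7 smooth muscle markers fell (5.7% and 14% of all genes fell). In the valves no endothelial marker was called under any treatment against Ctrl. The share of all genes called there ran from 0% under Lard in the mitral valve to 42.9% under IR/CHT in the aortic valve. In the right-sided valves it was at most 0.688%. The T cell, dendritic cell and B cell sums were higher beside CD68 in both tissues and the endothelial sum in the aorta, and their part in the members' values was not tested.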

How the data were processed

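RNA of the aorta and 4 heart valves was sequenced by the authors with a stranded total RNA kit for low input, and reads were demultiplexed with bcl2fastq 2.20. The deposited tables hold raw read counts per Ensembl gene for 2 plates, made by the authors with the nf-core/rnaseq workflow on OryCun2.0. The authors kept that workflow's default settings apart from read trimming, and the strand setting is not named. Tissue and treatment were taken from the labels, and the rabbit of each library from the column names.

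Library sizes were scaled by TMM over all 134 libraries. In each tissue, genes were filtered with filterByExpr (minimum count 10) and tested in edgeR 4.0.16 (R 4.3.3) with a robust quasi-likelihood test in 1 model of the 4 treatments, with Benjamini-Hochberg adjustment. A gene was called at an adjusted p under 0.05 with a fold change over 1.5. Differences between tissues on chow and differences of responses were fitted over the 5 tissues, the latter called at an adjusted p under 0.05 alone. DESeq2 1.42.0, other scalings, no filter, 2 groups alone, plates and leaving out each library were the alternatives, and the edgeR scripts were tested on simulated counts. Log2 CPM of single libraries used a prior count of 2. Ratios and relations between tissues were tested by permutation (scipy 1.17.1).

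Libraries of the same rabbit deviated together. The median correlation of their deviations from the group means was 0.17 to 0.44 for the pairs of tissues, against -0.014 to 0.007 for different rabbits, and it exceeded 0.1 in 18 to 26 rabbits per pair. Fits with the rabbit as a block were therefore computed for comparisons between tissues. Treatments were given to different rabbits and cannot be blocked.

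Counts came from libraries of 13564979 to 50577676 reads in genes, and no 2 libraries of a group agreed within sampling noise. The members and the gene lists were chosen with earlier results of these data known. Named list genes were the 3 called genes with the smallest p of each list in CHT against Ctrl (aorta, aortic and mitral valve) and in IR/CHT against CHT (aortic valve), apart from those marked as chosen later. Levels are not compared between genes because no exon lengths were used, and no sequences are shown.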

Additional observations from a re-analysis of the deposited data

Results flagged for a closer look

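In 8 of 91 combinations of a member with a group of tissue and treatment, 1 library stood apart from the rest of its group. This was by Dixon's gap test at the 95% level, where chance gives about 1 in 20. The same libraries enter for several members, so the combinations are not independent. CSF1R was low in the IR/CHT aortic valve L174 (356 CPM) and the IR/CHT mitral valve L175 (128 CPM) and high in the Ctrl tricuspid valve L168 (141 CPM). AIF1 was low in the CHT aorta L560 (30.6 CPM) and the IR/CHT pulmonary valve L275 (7.76 CPM). CD163 was low in the Lard aorta L577 (12.4 CPM) and in the same pulmonary library L275 (7.18 CPM). TIMD4 was high in the Ctrl aortic valve L240 (0.367 CPM, 5 reads). L275 and L168 were also the lowest of their groups in the endothelial sum, at 98.8 and 390 CPM, and L240 had the highest heart muscle sum of the Ctrl aortic valves, at 12445 CPM. The part of these sums in the members' values was not tested.

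Differences of the same treatment response between 2 tissues passed the interaction test in 24 cases. The tests with such a case called from 2.21% (mitral minus tricuspid valve, CHT) to 40.8% (aortic minus pulmonary valve, IR/CHT against Ctrl) of the 16966 genes. Aortic valve minus aorta called 36.8% under IR/CHT against Ctrl. Between aortic valve and aorta under CHT the differences were -1.21 for CD68, -1.55 for CSF1R and -1.57 for AIF1. Under IR/CHT against Ctrl they were -0.97 for CSF1R and -1.97 for CD163, and AIF1 (-0.82, adjusted p = 0.0732) passed with the rabbit as a block (-0.91, adjusted p = 0.0224). Under IR/CHT against CHT CD68 differed by 1.20, and under Lard the values were -1.72 for CD68, -1.95 for CSF1R, -1.78 for AIF1 and -1.83 for CD163.

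Between mitral and aortic valve, CD68 under IR/CHT against Ctrl differed by -1.01 (adjusted p = 0.0483). With the rabbit as a block CSF1R (-0.96, adjusted p = 0.0307) and AIF1 (-0.92, adjusted p = 0.0385) passed as well.

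Between aortic and pulmonary valve under CHT, CD68 differed by 2.68, AIF1 by 1.69 and TIMD4 by -7.26. Under IR/CHT against Ctrl, CD68 differed by 4.22, CSF1R by 1.90, AIF1 by 3.19 and TIMD4 by -4.53. The TIMD4 values rest on aortic valve groups of 8 Ctrl, 4 CHT and 48 IR/CHT reads in all and depend on the prior count. TIMD4 entered these tests through the right-sided groups where it is high, so that it passed is no result, although the 24 cases include it. Under IR/CHT against CHT, CD68 differed by 1.54 and AIF1 by 1.51. Between mitral and tricuspid valve, CD68 and AIF1 differed by 2.28 and 1.86 under CHT and by 2.95 and 2.55 under IR/CHT against Ctrl. Several of these tests share Ctrl libraries.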

How the results depend on the processing

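No member changed direction past the threshold under any alternative. The following counts of called members moved by over 1.5 times, and where no cause is given it was not tested. With 2 groups alone in the model, the count fell from 3 to 0 for Lard against Ctrl in the aorta, from 1 to 0 for CHT against Ctrl in the tricuspid valve, where TIMD4 no longer passed the filter and was not tested, and from 2 to 1 for IR/CHT against Ctrl there. That last count was also 1 with DESeq2 on 2 groups, DESeq2 size factors, TMM within the tissue, total library size and no filter, 4 in plate 1 alone and 0 in plate 2 alone. DESeq2 gave 1 instead of 0 for IR/CHT against CHT in the aorta (all libraries or 2 groups) and the mitral valve (all libraries) and for Lard against CHT in the tricuspid valve (both). On 2 groups it gave 2 instead of 1 for CHT against Ctrl and for Lard against CHT in the pulmonary valve. Plate 2 alone gave 0 in the pulmonary valve (CHT and IR/CHT against Ctrl, Lard against CHT) and for CHT against Ctrl in the tricuspid valve, and plate 1 alone gave 2 for IR/CHT against Ctrl in the pulmonary valve. Without the filter the tricuspid against mitral difference on chow fell from 1 to 0. The CD68 difference between mitral and aortic valve under IR/CHT against Ctrl was lost without the filter and with DESeq2 size factors (0 instead of 1). Total library size moved the median of all genes by 0.12, 0.11 and 0.21 under CHT, Lard and IR/CHT in the aorta and by -0.12 under IR/CHT in the aortic valve.

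With the rabbit as a replicate block, 2 instead of 1 member passed between pulmonary and mitral valve on chow and 3 instead of 1 between the IR/CHT responses of mitral and aortic valve. The pairing otherwise added the AIF1 response of aortic valve against aorta and removed CD163 of mitral valve against aorta (0.91), as given above, and changed no other call.

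Leaving out 1 library gave 0 to 1 for IR/CHT against CHT in the aorta (1 without L579) and mitral valve (1 without L157 or L175), 2 to 3 for Lard against Ctrl in the aorta, 3 to 4 for CHT against Ctrl in the aorta and Lard against CHT in the aortic valve, and 2 to 3 for CHT against Ctrl and Lard against CHT in the mitral valve. It gave 1 to 2 for CHT (2 without L275) and IR/CHT (2 without L279, L180 or L275) against Ctrl in the pulmonary valve. In the tricuspid valve it gave 0 to 1 for CHT against Ctrl (0 without L160 or L189) and Lard against CHT (1 without L235) and 1 to 3 for IR/CHT against Ctrl. On chow it gave 3 to 4 for the mitral, pulmonary and tricuspid valve against the aorta, 0 to 3 for pulmonary against aortic (1 without L150, 0 without L261), 0 to 2 for tricuspid against aortic (1 without L240 or L277, 2 without L168) and 0 to 1 for tricuspid against mitral valve. Of 100 ratio tests 39 to 43 passed, against 41 with all libraries. These counts and the adjustment over the 100 tests include the ratios with TIMD4. Ratios with TIMD4 depend on the prior count, since many libraries held no read of it. In the aorta, aortic and mitral valve TIMD4 was nearly absent, so its ratio to CD68 mirrors CD68, and that it passed there is no result. Ctrl and Lard libraries held 0 to 19 reads of TIMD4, which limits the precision of its values there.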
